A study of Homo sapiens with 12 samples.

Results

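Antisense, divergent and intronic noncoding transcripts are named in the gene tables after the coding gene they lie against, with the endings -AS and a number (antisense), -DT (divergent) and -IT and a number (intronic). Members were chosen by their name and by their read counts: a gene with such a name was taken when its raw counts, summed over the 6 libraries of a line, reached 100 in HepG2 or in Huh7, and 1 gene with such a name was set aside. This gave 370 members of the 20293 genes listed in either line, of 610 listed genes whose names have these endings. Of the members, 312 had an AS ending, 52 a DT ending and 6 an IT ending, and 296 reached the minimum in HepG2, 308 in Huh7 and 234 in both. The coding gene in the name was itself listed for 341 members (335 distinct genes, with 12 members sharing theirs with another member). The count that chose them was summed over both siRNA groups. Just inside the minimum stood ADNP-AS1, CRYM-AS1 and GORAB-AS1, each with a summed count of 100 in the line where it was higher, and just outside it MATN1-AS1 and NDUFV2-AS1, with 99.

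The study asked what the loss of UBL5, a small ubiquitin-like protein bound by spliceosome components, does to the transcripts of hepatoma cells. The 12 libraries fall into 4 groups of 3: HepG2 cells with UBL5-siRNA, HepG2 cells with Ctrl-siRNA, Huh7 cells with UBL5-siRNA and Huh7 cells with Ctrl-siRNA, all labelled 52 h (the study's own text gives a different time for this RNA, and the labels were followed). HepG2 and Huh7 are established human lines from liver tumours, no other agent or genetic change is named in the labels of these groups, and the same siRNA comparison was made in each line with its own controls. Nothing in the labels tells if libraries of 1 group came from separate cultures, so the p-values measure the spread between libraries, which may be technical.

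Many promoters of human coding genes fire in both directions, and the RNA made on the side away from the coding gene is usually short-lived: early polyadenylation and the nuclear exosome remove it, while U1 snRNP, by binding 5′ splice sites, shields the coding transcript from early ending. Some of these RNAs are spliced and stable enough to be annotated as long noncoding RNA (lncRNA) genes. Antisense genes in the wider sense overlap the body of a coding gene on its other strand, and intronic ones lie inside an intron on the same strand, where reads of unspliced coding RNA also fall.

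The 3 shared promoters shown are examples, picked by hand after the values were seen. The noncoding and the coding transcript start close to each other there. The 2 sides were called in opposite directions after UBL5 siRNA in at least 1 line (values below). Other divergent pairs were too: in Huh7, 21 of 66 had the noncoding side lower and the coding side higher. A RefSeq window (GRCh38.p14) was found for 288 of the 370 members, 15 of them under an older symbol. SRP14-AS1 is SRP14-DT in RefSeq. Each window has 300 bases, runs 5′ to 3′ on the strand of the noncoding transcript, and ends shortly after its start. Capitals mark every match on either strand to CCAAT, to GGGCGG (the GC box), to CCGGAAG (an ETS factor motif), to TGCGCATG (part of the NRF1 motif) and to TATAAA, which do not overlap one another here.
ZNF561-AS1: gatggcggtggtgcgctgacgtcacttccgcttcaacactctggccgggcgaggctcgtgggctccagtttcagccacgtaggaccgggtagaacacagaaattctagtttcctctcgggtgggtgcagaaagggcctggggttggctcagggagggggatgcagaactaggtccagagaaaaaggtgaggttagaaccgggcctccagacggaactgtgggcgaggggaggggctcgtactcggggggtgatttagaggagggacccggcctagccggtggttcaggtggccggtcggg
SRP14-AS1: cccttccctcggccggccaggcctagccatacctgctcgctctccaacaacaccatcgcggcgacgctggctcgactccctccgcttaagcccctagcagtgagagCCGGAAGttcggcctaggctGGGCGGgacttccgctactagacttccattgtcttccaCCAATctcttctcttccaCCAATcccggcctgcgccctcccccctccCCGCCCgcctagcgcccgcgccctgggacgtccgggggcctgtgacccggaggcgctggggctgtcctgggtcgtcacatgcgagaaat
MRPS30-DT: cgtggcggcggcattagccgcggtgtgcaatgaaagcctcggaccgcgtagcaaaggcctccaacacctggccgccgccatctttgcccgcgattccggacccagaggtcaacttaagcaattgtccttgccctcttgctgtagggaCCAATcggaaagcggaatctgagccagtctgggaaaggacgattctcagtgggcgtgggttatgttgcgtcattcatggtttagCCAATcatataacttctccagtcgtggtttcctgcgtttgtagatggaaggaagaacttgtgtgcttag
The windows lie at chr19:9621232-9621531 (plus strand), chr15:40039061-40039360 (plus strand) and chr5:44808744-44809043 (minus strand). The annotated start of the coding gene lies inside each window, 246 bases upstream of the RefSeq start of ZNF561-AS1, 130 bases upstream of that of SRP14-AS1 and 154 bases upstream of that of MRPS30-DT. The ZNF561-AS1 window held none of the 5 motifs, the SRP14-AS1 window held 2 CCAAT, 2 GC box and 1 ETS matches, and the MRPS30-DT window held 2 CCAAT matches. In GENCODE, ZNF561-AS1 and ZNF561 both start near the 5′ end of the ZNF561-AS1 window. Most of that window thus lies inside ZNF561-AS1 as annotated there, and only part of the stretch around these 2 starts was searched for motifs.

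The members' promoters as a set were rich in G and C. Their windows had a median of 65.0% G and C and 24 CG dinucleotides, against 58.3% and 14 in all 27305 windows of the same length. A GC box lay in 60.1% of the members' windows and in 44.6% of all windows, the ETS motif in 16.7% and 10.7%, the NRF1 letters in 3.47% and 2.26%, CCAAT in 33.7% and 35.7%, and TATAAA in 5.21% and 11.9%. Among the 161 members with a window that were called lower in Huh7 (calls are defined with the fold changes), 62.1% held a GC box and 19.9% the ETS motif, and among the 33 called higher, 57.6% and 9.09%. These shares describe letters in a window, and binding of a factor was not measured.

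UBL5 mRNA was low in the UBL5-siRNA libraries. It stood at 6.88, 4.31 and 2.80 CPM (counts relative to the TMM-scaled library size) in HepG2 cells with UBL5 siRNA and at 60.4, 55.5 and 58.7 CPM with Ctrl-siRNA, and at 6.45, 6.67 and 5.80 CPM in Huh7 cells with UBL5 siRNA and 68.1, 70.8 and 67.1 CPM with Ctrl-siRNA. Libraries held 19469574 to 29744471 counts. All 16 hepatocyte markers checked were listed in both lines, with a summed level of 58455 to 69100 CPM under UBL5 siRNA and 57173 to 62400 CPM under Ctrl-siRNA in HepG2, and 36815 to 37541 CPM and 34191 to 35913 CPM in Huh7, while PTPRC, which defines leukocytes, and VWF, of endothelium, were listed in neither. Of 8 leukocyte markers 3 were listed in HepG2, with a summed level of 985 to 1263 CPM under UBL5 siRNA and 1637 to 2193 CPM under Ctrl-siRNA, and 2 in Huh7, with 338 to 355 CPM and 563 to 578 CPM, a difference whose part in the results was not tested. Nearly all of these sums was LYZ, the gene of lysozyme, with 1121 ± 138 CPM under UBL5 siRNA and 1889 ± 280 CPM under Ctrl-siRNA in HepG2 (SD, n = 3 each). CD14, a monocyte receptor gene, was higher, with 6.29 CPM under UBL5 siRNA and 0.23 CPM under Ctrl-siRNA in HepG2 and 4.72 and 1.66 CPM in Huh7. Endothelial markers (4 of 8 listed in HepG2 and 1 of 8 in Huh7) summed to 9.52 to 16.0 CPM under UBL5 siRNA and 16.4 to 27.1 CPM under Ctrl-siRNA in HepG2 and to under 1 CPM in every Huh7 library. These HepG2 markers moved both ways. LYVE1 (mean 6.02 CPM with UBL5 siRNA, against 16.9 CPM) and PECAM1 (2.63 against 5.29 CPM) were lower. CDH5 (2.30 against 0.07 CPM) and TIE1 (2.47 against 0.74 CPM) were higher. Fibroblast and stellate markers (7 of 8 and 8 of 8) summed to 12.2 to 27.5 CPM and 10.2 to 14 CPM in HepG2 and 33 to 47.2 CPM and 45.7 to 51.8 CPM in Huh7. In Huh7 LUM was lower (9.51 against 27.7 CPM), while COL1A1 (6.05 against 2.67 CPM) and PDGFRB (3.59 against 2.06 CPM) were higher. The HepG2 Ctrl-siRNA library of replicate 3 stood apart: 1773 listed genes had no read in it, against 159 to 233 in the other 5 HepG2 libraries, and so had 50 of the 337 members listed in HepG2, against 0 to 3. The main HepG2 counts are therefore given with and without this library. The data columns of this library and of HepG2 UBL5-siRNA replicate 3 are named in another form than the rest, and the reason is not stated.

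The members were scarce RNAs. Over the libraries of a line their median level was 1.72 CPM in HepG2 and 1.83 CPM in Huh7, against 38.7 CPM and 37.3 CPM for the coding genes in their names, and 29 members in HepG2 and 28 in Huh7 reached 10 CPM. CPM is not scaled for gene length. Together the members took 0.125 to 0.134% of all counts in HepG2 libraries with UBL5 siRNA, against 0.148 to 0.168% with Ctrl-siRNA, and 0.116 to 0.119% in Huh7 libraries with UBL5 siRNA, against 0.171 to 0.172% with Ctrl-siRNA. The siRNA groups did not overlap in either line.

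After UBL5 siRNA the members were called lower more often than higher, with a wider margin in Huh7. There, 188 of the 334 members tested fell and 53 rose (edgeR quasi-likelihood test, Benjamini-Hochberg adjusted p under 0.05 over all genes tested), that is 56.3% and 15.9%, against 36.4% lower and 34.9% higher among all 16965 genes tested. The share called in either direction, 72.2%, was near the 71.3% of all genes, so what set the members' counts beside those of all genes was the split of directions. In HepG2, 55 of 322 members fell and 19 rose, that is 17.1% and 5.90%, against 20.1% lower and 16.5% higher among all 15755 genes, of which 36.7% were called. Without Ctrl-siRNA replicate 3, 91 of 328 members fell and 39 rose in HepG2, against 24.1% lower and 20.9% higher among all genes (45% called), and 73 of the 74 members called with all 6 libraries were again called, all in the same direction. Without UBL5-siRNA replicate 2 or replicate 3, 40 and 41 members were called, that is 12.2% and 12.5%, against 23.7% and 27% of all genes.

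The median log2 fold change of the members was -0.67 in Huh7 and -0.19 in HepG2 (-0.30 without Ctrl-siRNA replicate 3), against -0.01 and 0.01 for all genes tested. Other lncRNA genes share much of this. Over all genes annotated as lncRNA, members included, the median was -0.59 in Huh7, with 895 lower and 370 higher of 1783, and -0.04 in HepG2, with 199 lower and 128 higher of 1482. The sign of the HepG2 value for lncRNA genes was not stable, with -0.12 without Ctrl-siRNA replicate 3, 0.09 without Ctrl-siRNA replicate 1 and 0.08 both without Ctrl-siRNA replicate 2 and with the replicate number as a block. The fit with the block gave -0.11 for the members. The coding genes in the members' names had a median of 0.10 in Huh7 and 0.06 in HepG2. With polyadenylated RNA read once at 1 time, less synthesis and faster decay of these RNAs cannot be told apart.

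**Figure D1:**
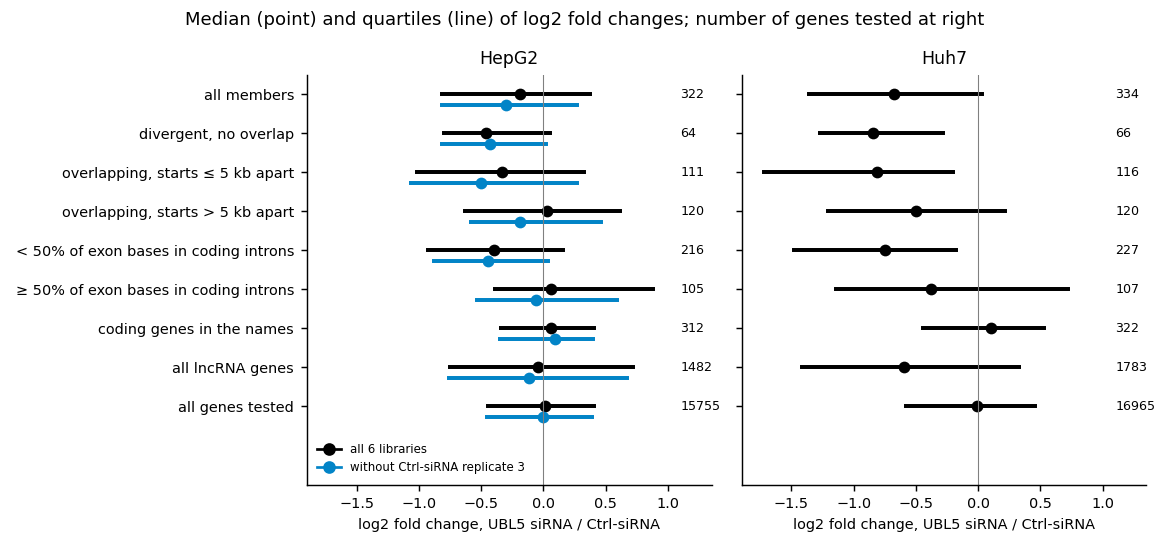
Median (point) and lower and upper quartile (line) of the log2 fold change of UBL5 siRNA over Ctrl-siRNA in HepG2 and Huh7 for the members, their position classes, the coding genes in their names, all lncRNA genes and all genes tested, with the number of genes at the right. In Huh7 the divergent members had the lowest median of the classes drawn (-0.84) and all genes centred on -0.01; blue lines in HepG2 leave out Ctrl-siRNA replicate 3.

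Position relative to the coding gene was read from GENCODE 44 (GRCh38), in which 369 members were found. Of those with a listed coding gene, 70 were divergent, on the opposite strand and with no shared stretch, with a median of 110 bases between the starts and 58 of them within 300 bases. In 129 the gene bodies overlapped on opposite strands with the starts within 5 kb, in 134 they overlapped with the starts farther apart, 2 lay otherwise on the opposite strand and 6 on the same strand inside the coding gene. In Huh7 the divergent members had a median log2 fold change of -0.84 (43 lower and 4 higher of 66 tested), those with overlapping bodies and near starts -0.81 (70 lower and 16 higher of 116), and those with far starts -0.50 (62 lower and 25 higher of 120). In HepG2 the medians were -0.46 (10 lower and 1 higher of 64), -0.33 (22 lower and 8 higher of 111) and 0.03 (19 lower and 9 higher of 120). Without Ctrl-siRNA replicate 3 they were -0.43 (19 lower and 2 higher of 66), -0.50 (41 lower and 14 higher of 115) and -0.19 (24 lower and 20 higher of 120), so the sign of the class with far starts depended on that library.

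Members that lie mostly within introns of coding genes moved less often downwards. Where at least 50% of the exon bases of a member lay in introns of coding genes, 50 of 107 fell and 29 rose in Huh7 (median -0.38), and where fewer did, 138 of 227 fell and 24 rose (median -0.75). In HepG2 the same split gave 12 lower and 9 higher of 105 (median 0.06) and 43 lower and 10 higher of 216 (median -0.40), and without Ctrl-siRNA replicate 3, 18 lower and 20 higher of 107 (median -0.06) and 73 lower and 19 higher of 220 (median -0.44). Members annotated with more exons were lower more often. With 5 or more exons 60.7% of 140 members fell in Huh7 and 23.6% of 127 in HepG2, and with at most 2 exons 44.4% of 81 and 2.38% of 84 (37.4% of 131 and 10.6% of 85 in HepG2 without Ctrl-siRNA replicate 3). These classes overlap, and the differences between them carry no test.

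The strand setting of the counting is not given in the sources used here, while the library kit keeps strand. Of 67 annotated genes with AS, DT or IT names whose exon bases lie by over 80% under exons of the other strand, 4 were listed (5.97%), against 39.9% of 494 such genes with a share between and 36.8% of 1983 with at most 20%, and for coding genes the shares were 19.1% of 47, 75.2% of 1224 and 70.3% of 18775. In 75 members more than 20% of the exon bases were shared with some other gene. If strand was not used, reads of a member and of the gene across from it cannot be told apart at such bases. Unspliced reads of a coding gene on the other strand would then also count for member exons inside its introns. In either case, reads of an intronic member and of an unspliced coding transcript on its strand cannot be told apart. In 120 members at least 50% of the exon bases lay in introns of coding genes on either strand.

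The most abundant members were FGD5-AS1 and OIP5-AS1 in both lines. FGD5-AS1, next to a guanine exchange factor gene that was not listed, had 103, 97.6 and 94.5 CPM in HepG2 cells with UBL5 siRNA and 113, 98.4 and 93.4 CPM with Ctrl-siRNA, and the groups overlapped (log2 fold change -0.05, adjusted p = 0.744). In Huh7 it had 124, 127 and 124 CPM with UBL5 siRNA and 150, 133 and 142 CPM with Ctrl-siRNA, a small drop without overlap (log2 fold change -0.18 ± 0.05 (SE), adjusted p = 0.00687).

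OIP5-AS1, the mammalian form of the conserved lncRNA cyrano, fell in both lines. It had 74.7, 66.8 and 66.3 CPM in HepG2 cells with UBL5 siRNA, against 124, 119 and 130 CPM with Ctrl-siRNA (log2 fold change -0.85 ± 0.09, adjusted p = 0.000272), and 54.1, 56.7 and 54.7 CPM in Huh7 cells with UBL5 siRNA, against 101, 88.8 and 89.5 CPM (-0.76 ± 0.06, adjusted p = 4.88e-07). The groups did not overlap in either line. Its coding neighbour OIP5, a subunit of the Mis18 complex that loads centromeric histone, was not called in either line (-0.45, adjusted p = 0.135, and -0.10, adjusted p = 0.506). OIP5-AS1 is known for a long, conserved pairing site for the microRNA miR-7, which is degraded when bound there. The site is printed because it is the best known feature of this member. The first line is the mature microRNA from RefSeq with its seed in capitals. The second is the site in the GENCODE transcripts of OIP5-AS1, with its outer 13 and 8 bases, which are complementary to miR-7, in capitals.
hsa-miR-7-5p: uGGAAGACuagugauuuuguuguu
OIP5-AS1: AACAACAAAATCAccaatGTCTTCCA
The 13 and 8 bases in capitals stand on either side of 5 bases in small letters. The first of these 5, a C, is complementary to the next base of miR-7 as well. The site is held by 12 of the 72 annotated OIP5-AS1 transcripts. The files give 1 count per gene, so which of these transcripts were lower is not known, and miR-7 itself was not measured.

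**Figure D2:**
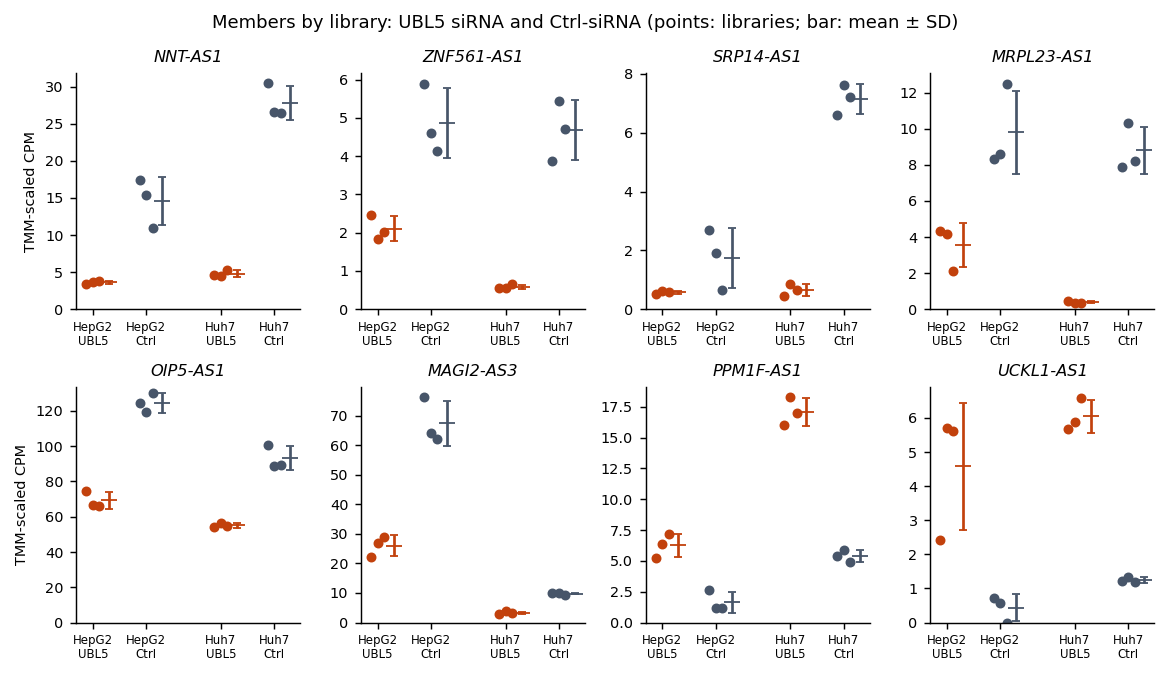
TMM-scaled CPM of 8 members in each of the 12 libraries, UBL5 siRNA (orange) left of Ctrl-siRNA (grey) within each line; points are libraries and bars the mean ± SD of 3. In the first 6 panels all UBL5-siRNA points lie below the Ctrl-siRNA points of the same line (SRP14-AS1 in HepG2 by little: 0.621 CPM against 0.665 CPM), and in the panels of PPM1F-AS1 and UCKL1-AS1 above.

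The other members among the 5 most abundant of a line differed in direction. MAGI2-AS3, which starts within 1 kb of the gene for the membrane scaffold protein MAGI2 on the other strand, had 22.1, 27 and 29 CPM in HepG2 cells with UBL5 siRNA, against 76.2, 64.1 and 62.2 CPM with Ctrl-siRNA, and 2.91, 3.78 and 3.16 CPM in Huh7 cells with UBL5 siRNA, against 9.84, 9.89 and 9.48 CPM. Every UBL5-siRNA value lay below every Ctrl-siRNA value in each line, and HepG2 held more of this RNA than Huh7. It fell by 1.38 and 1.57 on the log2 scale (adjusted p = 0.000216 and 4.8e-07). MAP4K3-DT, which starts 771 bases from the gene of a kinase of nutrient and stress signalling, had 13, 11.3 and 14.1 CPM in HepG2 cells with UBL5 siRNA, against 23.8, 27.7 and 34.1 CPM, and fell by 1.16 there and by 0.90 in Huh7 (adjusted p = 0.000942 and 4.86e-05), while MAP4K3 rose in Huh7 (log2 fold change 0.60, adjusted p = 6.48e-07) and had 0.15 in HepG2 (adjusted p = 0.264). TP73-AS1, across from the gene of a p53 relative, rose in Huh7, with 43.8, 44 and 42.6 CPM under UBL5 siRNA and 23.3, 24.0 and 26.3 CPM under Ctrl-siRNA (log2 fold change 0.83 ± 0.07, adjusted p = 4.8e-07). In HepG2 its log2 fold change was 0.53 (adjusted p = 0.101, and 0.0347 in the fit with the replicate number as a block). LBX2-AS1 had -0.59 in Huh7 (adjusted p = 0.000924) and -0.32 in HepG2 (adjusted p = 0.163, and 0.0331 without Ctrl-siRNA replicate 3 and 0.0229 with the replicate block). THUMPD3-AS1 had -0.17 in Huh7 and -0.34 in HepG2 and PSMA3-AS1 -0.01 and 0.28, none of them called, although PSMA3, of the proteasome core, fell in Huh7 (-0.49, adjusted p = 1.96e-05) and THUMPD3, a tRNA methyltransferase, rose in both lines (0.54 and 0.35, adjusted p = 4.12e-06 and 0.0162).

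ZNF561-AS1 and ZNF561, a zinc finger protein gene, form a divergent pair that was called in opposite directions in both lines. Their GENCODE starts are 13 bases apart (ZNF561-AS1 at chr19:9621249-9674662, plus strand), near the 5′ end of the window printed above. ZNF561-AS1 had 0.542, 0.548 and 0.650 CPM in Huh7 cells with UBL5 siRNA, against 3.87, 5.44 and 4.71 CPM with Ctrl-siRNA, and 2.47, 1.82 and 2.02 CPM in HepG2 cells with UBL5 siRNA, against 5.90, 4.60 and 4.12 CPM. The noncoding side was thus low in all UBL5-siRNA libraries, without overlap. It fell by 2.99 ± 0.22 in Huh7 and by 1.21 ± 0.27 in HepG2 on the log2 scale (adjusted p = 2.57e-07 and 0.00758). ZNF561 had 46.2, 47.9 and 44.7 CPM in Huh7 cells with UBL5 siRNA, against 23.4, 23.0 and 21.7 CPM, and 67.8, 67.1 and 78.2 CPM in HepG2 cells with UBL5 siRNA, against 29.3, 28.5 and 32.2 CPM, so that the coding side rose in both lines (1.02 and 1.24, adjusted p = 6.46e-08 and 0.000138). The log2 ratio of ZNF561-AS1 to ZNF561 within a library was -5.44 ± 0.12 with UBL5 siRNA and -2.18 ± 0.24 with Ctrl-siRNA in Huh7 (SD, n = 3 each, exact permutation p = 0.1, two-sided, the smallest that 3 against 3 libraries allow). ZNF561-AS1 shares 42% of its exon bases with another gene.

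SRP14-AS1 starts 61 bases from SRP14, which encodes a subunit of the signal recognition particle, and extends over chr15:40039242-40080614 (plus strand). It had 0.443, 0.846 and 0.650 CPM in Huh7 cells with UBL5 siRNA, against 6.61, 7.62 and 7.22 CPM with Ctrl-siRNA, and fell by 3.45 ± 0.20 on the log2 scale (adjusted p = 3.4e-08). SRP14 rose by 0.42 ± 0.04, with 183, 174 and 176 CPM under UBL5 siRNA and 131, 135 and 133 CPM under Ctrl-siRNA (adjusted p = 4.74e-06). In HepG2 SRP14-AS1 had 0.529, 0.621 and 0.571 CPM with UBL5 siRNA and 2.68, 1.93 and 0.665 CPM with Ctrl-siRNA, the last value in replicate 3 (log2 fold change -1.60, adjusted p = 0.0638, and -2, adjusted p = 0.000682, without that library), and SRP14 rose (0.37, adjusted p = 0.0101).

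MRPS30-DT, which starts 170 bases from MRPS30, a protein of the mitochondrial ribosome, was measured mainly in Huh7. It had 2.51, 2.74 and 2.83 CPM with UBL5 siRNA, against 8.07, 7.31 and 7.17 CPM with Ctrl-siRNA, and fell by 1.48 ± 0.13 (adjusted p = 9.35e-07), while MRPS30 rose slightly, to 197, 204 and 220 CPM with UBL5 siRNA, against 175, 159 and 176 CPM (0.29 ± 0.06, adjusted p = 0.000721). In HepG2 MRPS30-DT was under 0.5 CPM in all 6 libraries and was not tested. Of the 66 divergent members tested in Huh7, the 4 that rose were BAIAP2-DT (log2 fold change 0.40), WASL-DT (0.36), ZMIZ1-AS1 (1.14) and PDXP-DT (2.57), named here after their values were seen. WASL-DT was also the 1 divergent member that rose in HepG2 (1.08, adjusted p = 0.00835, and 2 rose without Ctrl-siRNA replicate 3), and WASL, an activator of actin branching, rose with it in both lines (0.40 and 0.39 in HepG2 and Huh7).

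NNT-AS1 fell in both lines beside a coding gene that was called in neither. NNT makes mitochondrial NADPH from NADH, and NNT-AS1 (chr5:43571594-43603230, minus strand) overlaps its first part with starts 538 bases apart. NNT-AS1 had 4.58, 4.43 and 5.29 CPM in Huh7 cells with UBL5 siRNA, against 30.5, 26.5 and 26.4 CPM with Ctrl-siRNA, and 3.44, 3.73 and 3.79 CPM in HepG2 cells with UBL5 siRNA, against 17.3, 15.4 and 11 CPM. The groups lay well apart in both lines. It fell by 2.54 ± 0.10 and by 2 ± 0.21 on the log2 scale (adjusted p = 3.13e-09 and 0.00025). NNT had 167, 168 and 161 CPM in Huh7 cells with UBL5 siRNA and 184, 170 and 169 CPM with Ctrl-siRNA (-0.08 ± 0.05, adjusted p = 0.175), and 86.2, 73.4 and 71.7 CPM in HepG2 cells with UBL5 siRNA and 82.3, 74.9 and 72.3 CPM with Ctrl-siRNA (0.01 ± 0.10, adjusted p = 0.944).

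MRPL23-AS1 had the largest drop in Huh7 among the members that passed the naming limits. It overlaps the gene of another mitochondrial ribosomal protein, MRPL23, over chr11:1983237-1989993 (minus strand). It had 0.443, 0.349 and 0.371 CPM in Huh7 cells with UBL5 siRNA, against 7.89, 10.3 and 8.22 CPM with Ctrl-siRNA (fell by 4.48 ± 0.21, adjusted p = 8.44e-09), and 4.32, 4.18 and 2.13 CPM in HepG2 cells with UBL5 siRNA, against 8.35, 8.62 and 12.5 CPM (fell by 1.46 ± 0.29, adjusted p = 0.00508). MRPL23 was not called in either line (0.05 in Huh7, adjusted p = 0.599, and -0.19 in HepG2, adjusted p = 0.365).

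The other members among the 6 lowest in Huh7 start within 5 kb of their coding gene. PPP3CB-AS1, at the gene of a catalytic subunit of calcineurin, fell by 2.95 and PPP3CB by 0.64 on the log2 scale in Huh7 (adjusted p = 2.44e-06 and 4.58e-06). SDCBP2-AS1 fell by 2.81 in Huh7 and 1.49 in HepG2 (adjusted p = 7.25e-08 and 0.00171). SPRY4-AS1, against a gene for an inhibitor of receptor tyrosine kinase signalling, fell by 2.78 in Huh7 (adjusted p = 3.51e-06), with 0.296, 0.349 and 0.232 CPM under UBL5 siRNA and 2.31, 1.74 and 2.01 CPM under Ctrl-siRNA, while its HepG2 value of -1.56 (adjusted p = 0.0731) rested on Ctrl-siRNA replicate 3 and was -0.55 without it (adjusted p = 0.218), while the replicate block gave an adjusted p of 0.0188. SPRY4 had 0.12 in Huh7 (adjusted p = 0.239) and rose by 0.67 in HepG2 (adjusted p = 0.0249).

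In HepG2 the 6 lowest of the named members were ITGA9-AS1 (-2.82), MZF1-AS1 (-2.07), ELOVL2-AS1 (-2.03), NNT-AS1 (-2), TNFRSF14-AS1 (-1.85) and RBPMS-AS1 (-1.64). ITGA9-AS1 had 0.309, 0.124 and 0.311 CPM with UBL5 siRNA, against 0.843, 1.17 and 3.26 CPM with Ctrl-siRNA, the last in replicate 3, and -2.02 without that library (adjusted p = 0.00469). The HepG2 calls of ITGA9-AS1 and TNFRSF14-AS1 were lost without UBL5-siRNA replicate 2. That of TNFRSF14-AS1 was lost also without Ctrl-siRNA replicate 2 or UBL5-siRNA replicate 3. ITGA9-AS1 fell in Huh7 as well (-2.05, adjusted p = 4.11e-05), where ITGA9, an integrin subunit, fell with it (-1.35, adjusted p = 0.000533). ELOVL2-AS1 fell together with ELOVL2, an elongase of polyunsaturated fatty acids, which had 133, 112 and 107 CPM with UBL5 siRNA, against 232, 243 and 258 CPM with Ctrl-siRNA (-1.06, adjusted p = 0.000204). RBPMS-AS1 fell in Huh7 too (-2.78, adjusted p = 0.000107), and RBPMS, an RNA-binding protein gene, by less in both lines (-0.33 in HepG2 and -0.23 in Huh7, adjusted p = 0.0359 and 0.00958). MZF1-AS1 fell in Huh7 by 1.25 (adjusted p = 0.0092), and TNFRSF14-AS1 was not listed there.

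UCKL1-AS1, annotated with 1 exon of which 80% lies in introns, rose in both lines. It had 2.43, 5.72 and 5.6 CPM in HepG2 cells with UBL5 siRNA, against 0.728, 0.586 and 0 CPM with Ctrl-siRNA, and 5.67, 5.87 and 6.59 CPM in Huh7 cells with UBL5 siRNA, against 1.21, 1.34 and 1.20 CPM. The groups did not overlap in either line. The log2 fold changes were 3.4 ± 0.85 in HepG2 (adjusted p = 0.0134, and 2.78, adjusted p = 0.000852, without Ctrl-siRNA replicate 3, where it had no read) and 2.27 ± 0.15 in Huh7 (adjusted p = 1.3e-07). The HepG2 call was lost without UBL5-siRNA replicate 2 or 3. UCKL1, a uridine and cytidine kinase relative, fell in HepG2 (-0.36, adjusted p = 0.031) and rose in Huh7 (0.35, adjusted p = 0.000864).

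ACSL3-AS1 was nearly unread with Ctrl-siRNA. Its raw counts were 39, 39 and 49 in HepG2 libraries with UBL5 siRNA, against 1, 5 and 0 with Ctrl-siRNA, and 52, 47 and 46 in Huh7 libraries with UBL5 siRNA, against 2, 3 and 0. The fitted log2 fold changes, 4.56 ± 0.91 and 4.94 ± 0.41 (adjusted p = 0.00484 and 7.12e-07), rest on those few control reads. It shares 75% of its exon bases with another gene on the other strand, and ACSL3, which activates long-chain fatty acids, rose as well (0.63 and 0.85 in HepG2 and Huh7, adjusted p = 0.0042 and 9.71e-08) at 705 to 935 CPM with UBL5 siRNA, against 476 to 601 CPM with Ctrl-siRNA, in HepG2. The part of ACSL3 reads in the ACSL3-AS1 count was not tested.

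PPM1F-AS1, PLCG1-AS1 and TSPOAP1-AS1 were also among the 6 highest in HepG2, and PPM1F-AS1, LOXL1-AS1 and SEMA3F-AS1 among those in Huh7. PPM1F-AS1 had 5.25, 6.38 and 7.16 CPM in HepG2 cells with UBL5 siRNA, against 2.64, 1.17 and 1.16 CPM with Ctrl-siRNA, and 16.0, 18.3 and 17.0 CPM in Huh7 cells with UBL5 siRNA, against 5.37, 5.88 and 4.91 CPM (1.91 and 1.66, adjusted p = 0.00356 and 6.27e-08). PLCG1-AS1 rose by 1.74 in HepG2 and 1.82 in Huh7 (adjusted p = 0.017 and 0.00151). The HepG2 call was lost without Ctrl-siRNA replicate 2 and without UBL5-siRNA replicate 2 or 3. PLCG1, a phospholipase of growth factor signalling, rose by 0.58 and 1.20 (adjusted p = 0.00385 and 1.9e-09). TSPOAP1-AS1 rose by 2.47 in HepG2 (adjusted p = 0.000701), with 4.89, 9.53 and 9.03 CPM under UBL5 siRNA and 1.46, 1.05 and 1.70 CPM under Ctrl-siRNA. In Huh7 LOXL1-AS1 rose by 1.98 together with LOXL1, a lysyl oxidase relative of the extracellular matrix (1.40, adjusted p = 2.36e-05 and 0.000391), and SEMA3F-AS1 by 1.66 together with the semaphorin gene SEMA3F (0.82, adjusted p = 0.000235 and 5.02e-06).

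The 6 intronic members are given in full, after their values were seen. In Huh7 GABPB1-IT1 (log2 fold change 1.02), NPTN-IT1 (0.90) and SOS1-IT1 (0.81) rose, HS1BP3-IT1 (-1.47) and N4BP2L2-IT2 (-0.87) fell, and ANKRD10-IT1 had 0.19 (adjusted p = 0.447). GABPB1-IT1 was the 1 called in HepG2, where it had 15.7, 16.4 and 14.9 CPM with UBL5 siRNA, against 7.62, 6.91 and 4.09 CPM with Ctrl-siRNA (1.34, adjusted p = 0.00218), and without Ctrl-siRNA replicate 3 SOS1-IT1 was called as well (adjusted p = 0.0146). GABPB1, a subunit of the ETS factor GABP, rose with GABPB1-IT1 in both lines (0.30 in HepG2 and 0.69 in Huh7, adjusted p = 0.0278 and 2.77e-07). In Huh7 4 of the 6 host genes moved in the direction of their intronic member, NPTN fell by 0.22 while NPTN-IT1 rose, and ANKRD10 rose by 0.52.

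Set beside the coding genes in their names, the members did not move as 1 with them. In Huh7, of 302 pairs with both sides tested, 96 were called in the same direction (65 both lower, 31 both higher) and 80 in opposite directions, 72 of them with the noncoding side lower and the coding side higher and 8 the other way. In 42 pairs the noncoding side alone was called, in 63 the coding side alone and in 21 neither. As 56.3% of the members tested were lower and 44.7% of the coding genes higher in Huh7, opposite pairs occur also without any link. A link within pairs was not tested. In HepG2, of 292 pairs, 17 were called in the same direction (10 both lower, 7 both higher) and 12 in opposite directions (11 with the noncoding side lower), with 36 called on the noncoding side alone, 99 on the coding side alone and 128 on neither. Without Ctrl-siRNA replicate 3, 32 of 298 pairs were called in the same direction (21 both lower, 11 both higher) and 27 in opposite directions (21 with the noncoding side lower). Across pairs Pearson's r of the 2 log2 fold changes was 0.24 in Huh7 and 0.12 in HepG2, and Spearman's rho 0.18 and 0.10, a description only, since both sides come from the same libraries and some pairs share reads or a coding gene. Among the 66 divergent pairs tested in Huh7, 21 had the noncoding side lower and the coding side higher, 15 had both lower and 3 both higher.

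Of the coding genes in the names, 144 of 322 rose and 112 fell in Huh7, that is 44.7% and 34.8%, against 38.2% and 37.9% of all 12941 protein-coding genes tested. In HepG2 71 of 312 rose and 62 fell, that is 22.8% and 19.9%, against 19.3% and 23.8% of 12009 (81 and 72 of 314 without Ctrl-siRNA replicate 3). The log2 ratio of member to coding gene within a library, which cancels what both share, did not overlap between the siRNA groups in 223 of 302 pairs in Huh7 (163 with a lower and 60 with a higher ratio under UBL5 siRNA), that is 73.8%, against 74.2% for the ratio of each gene tested to its nearest coding gene. In HepG2 this held for 134 of 292 pairs (80 lower and 54 higher), that is 45.9%, against 54.8%. It held for 191 pairs without Ctrl-siRNA replicate 3 and for 150 to 158 without any other 1 library. Groups separate more easily with a library fewer, and the share over all genes was not taken for these counts. The median change of the ratio over the pairs tested was -0.53 in Huh7 and -0.16 in HepG2.

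**Figure D3:**
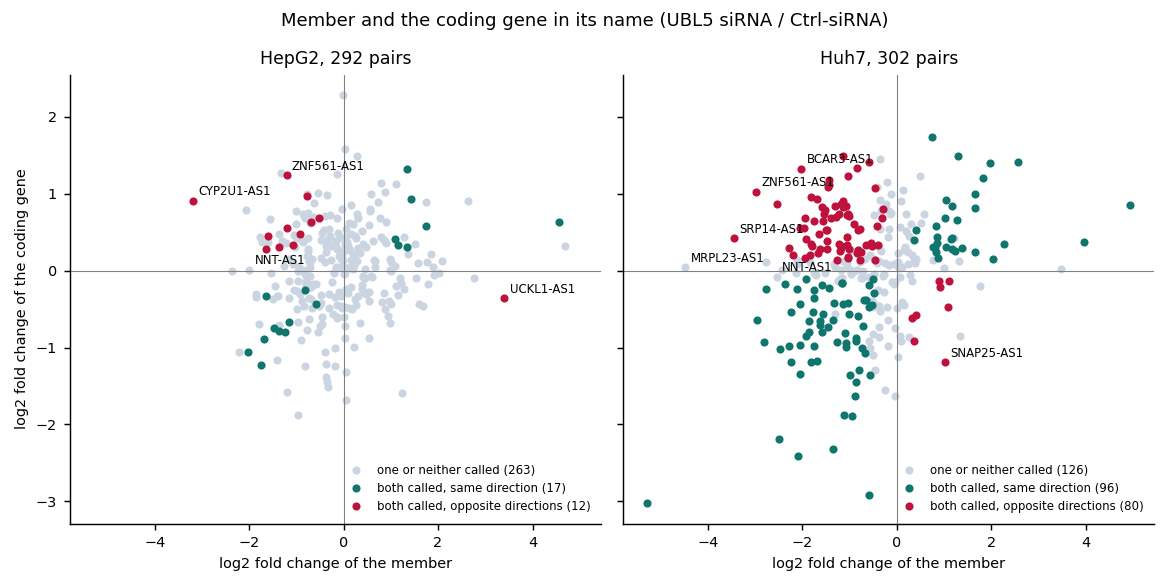
Log2 fold change (UBL5 siRNA over Ctrl-siRNA) of each member on the horizontal axis and of the coding gene in its name on the vertical axis, 292 pairs in HepG2 and 302 in Huh7. In Huh7 96 pairs were called in the same direction (green) and 80 in opposite directions (red), 72 of these in the upper left, where the noncoding side fell and the coding side rose.

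Besides ZNF561-AS1 and SRP14-AS1, BCAR3-AS1 was among the 4 widest opposite pairs in Huh7. BCAR3-AS1 had 2.91, 1.59 and 2.37 CPM with UBL5 siRNA, against 8.24, 9.63 and 10.4 CPM with Ctrl-siRNA (-2.03, adjusted p = 1.33e-06), while BCAR3, an adaptor protein of integrin signalling, rose (1.32, adjusted p = 3.26e-07). BCAR3-AS1 fell in HepG2 (-0.89, adjusted p = 0.00873), where BCAR3 had 0.01 (adjusted p = 0.983).

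In HepG2 the 4 widest opposite pairs were those of CYP2U1-AS1, UCKL1-AS1, ZNF561-AS1 and DLGAP4-AS1. CYP2U1-AS1 had 0.132, 0.248 and 0.104 CPM with UBL5 siRNA, against 0.613, 0.628 and 3.36 CPM with Ctrl-siRNA, the last in replicate 3 (-3.19, adjusted p = 0.0204, and -1.87, adjusted p = 0.00958, without it), and CYP2U1, a cytochrome P450 gene, rose (0.91, adjusted p = 0.0481). DLGAP4-AS1 fell by 1.60 (adjusted p = 0.0472) and DLGAP4 rose by 0.45 (adjusted p = 0.0121). In the fit with the replicate number as a block, neither CYP2U1-AS1 nor DLGAP4-AS1 was called (adjusted p = 0.0551 and 0.0876). The call of CYP2U1-AS1 was also lost without any 1 UBL5-siRNA library. That of DLGAP4-AS1 was lost with no filter on low counts and without any 1 of the 6 libraries other than Ctrl-siRNA replicate 3. DLGAP4-AS1 fell in Huh7 too (-1.76, adjusted p = 0.00512).

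The lines were next compared with each other. Of 286 members tested in both, 44 fell in both lines (15.4%, against 16.4% of all 14518 genes tested in both), 14 rose in both (4.90%, against 14.5%) and 1, SNAP25-AS1, was called in opposite directions (0.35%, against 2.27%). Without HepG2 Ctrl-siRNA replicate 3, 73 of 292 fell in both (25%, against 19%), 25 rose in both (8.56%, against 17.1%) and 4 went opposite ways (1.37%, against 2.75%). The log2 fold changes of the 286 members had a Pearson's r of 0.76 and a Spearman's rho of 0.70 between the lines, which share no library, as a description across genes.

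A test of the difference itself (interaction of line and siRNA over all 12 libraries) called 40 of 316 members, that is 12.7%, against 21.5% of all 15668 genes tested. Of the 286 members tested in both lines 38 were called, and the other 2, ADORA2A-AS1 and MRPS30-DT, passed the filter on low counts only through Huh7. The change in HepG2 was higher than that in Huh7 for 32 of the 40 and lower for 8, and the median of HepG2 minus Huh7 was 0.56 for members and 0.01 for all genes. Without HepG2 Ctrl-siRNA replicate 3 it called 74 (64 higher and 10 lower), that is 23.4%, against 27.4% of all genes, with a median of 0.43.

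Among members of at least 1 CPM, ADORA2A-AS1, MRPL23-AS1, SNAP25-AS1 and MRPS30-DT had the widest called differences. The first and the last are given as a description, since members that pass the filter only in the line where they are high are bound to differ in level. ADORA2A-AS1, across from an adenosine receptor gene, had 1.63, 1.49 and 1.86 CPM in Huh7 cells with UBL5 siRNA, against 4.90, 4.46 and 4.46 CPM with Ctrl-siRNA, and raw counts of 7, 12 and 6 in HepG2 libraries with UBL5 siRNA, against 3, 2 and 0 with Ctrl-siRNA, too few for the test within HepG2. SNAP25-AS1, which spans the whole gene of the synaptic SNARE protein SNAP25, had 0.882, 0.456 and 0.623 CPM in HepG2 cells with UBL5 siRNA, against 2.07, 1.84 and 1.96 CPM with Ctrl-siRNA, and 3.01, 3.34 and 3.48 CPM in Huh7 cells with UBL5 siRNA, against 1.92, 1.11 and 1.75 CPM. The groups did not overlap in either line, and their order was opposite. It fell by 1.58 in HepG2 and rose by 1.02 in Huh7 (adjusted p = 0.0229 and 0.000794, difference -2.58 ± 0.44, adjusted p = 0.00121). The HepG2 call was lost without Ctrl-siRNA replicate 1 or 2 and without UBL5-siRNA replicate 2 or 3. SNAP25 fell in Huh7 (-1.19, adjusted p = 2.29e-05). MRPL23-AS1 fell less in HepG2 than in Huh7 (difference 3.05 ± 0.42, adjusted p = 0.000331).

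**Figure D4:**
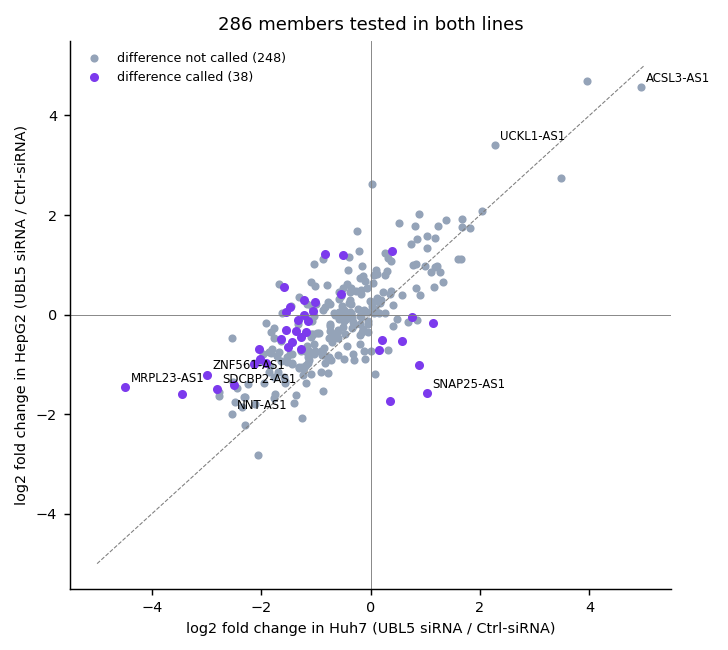
Log2 fold change (UBL5 siRNA over Ctrl-siRNA) of the 286 members tested in both lines, Huh7 on the horizontal and HepG2 on the vertical axis, with the line of equal change dashed. Purple points are the 38 of them whose difference between the lines was called; most of these lie in the lower left above the dashed line, with a larger drop in Huh7, and SNAP25-AS1 lies in the lower right.

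Factors that end or remove such RNAs are listed for context, from lists written from general knowledge. Of 25 genes of the nuclear exosome and its adaptors, 13 rose and 3 fell in Huh7 and 5 rose and 4 fell in HepG2 (medians 0.16 and 0.07). The share called in either direction was 64% in Huh7 and 36% in HepG2, against 71.3% and 36.7% of all genes tested. Among all genes tested, 34.9% rose and 36.4% fell in Huh7 and 16.5% rose and 20.1% fell in HepG2 (medians -0.01 and 0.01). ZFC3H1, which links polyadenylated nuclear RNA to the exosome, fell in both lines, to 18.7 ± 0.74 CPM with UBL5 siRNA in Huh7, against 55.8 ± 4.29 CPM with Ctrl-siRNA (SD, n = 3 each), and to 14.2 ± 1.62 CPM in HepG2, against 32.9 ± 0.84 CPM (log2 fold changes -1.58 and -1.21). ZC3H18, a bridge between the cap-binding complex and the exosome, rose (0.97 in Huh7 and 0.41 in HepG2), and TENT4B, a nuclear poly(A) polymerase, rose in Huh7 (0.96) and had 0.15 in HepG2 (adjusted p = 0.473, and 0.0288 without Ctrl-siRNA replicate 3).

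Of 20 tested genes of the Integrator complex and early termination, 12 rose and 2 fell in Huh7 and 5 rose and 3 fell in HepG2 (medians 0.22 and -0.02). That is 70% and 40% called, against 71.3% and 36.7% of all genes tested. ZC3H4, WDR82 and PPP1R10, which act in early termination of noncoding transcription, rose in both lines, by 1.06, 1.13 and 1.16 in Huh7 and 0.71, 0.72 and 0.49 in HepG2. Of 9 genes for U1 snRNP proteins and close partners, 7 rose and 1 fell in Huh7 and 3 rose and 1 fell in HepG2 (88.9% and 44.4% called, medians 0.42 and 0.37). PRPF39 rose by 1.36 and 0.94 and LUC7L by 0.78 and 0.56, while TIA1, which helps U1 bind weak 5′ splice sites, fell by 1.14 and 0.96. Of the genes for sensing and editing of double-stranded RNA, 5 rose and 4 fell of 16 in Huh7 and 1 rose and 5 fell of 17 in HepG2 (56.25% and 35.3% called, medians 0.05 and -0.24). OAS3 fell by 2.02 in Huh7 and by 1.53 in HepG2, and IFIH1 by 2.30 and 0.51 (adjusted p = 0.0401 in HepG2, and 0.0549 without Ctrl-siRNA replicate 3). The part of any of these factors in the members' changes was not tested.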

How the data were processed

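Per the labels and the methods of the study, polyadenylated RNA was made into strand-specific TruSeq libraries and read in single reads. The authors aligned reads to GRCh38 with STAR 2.7.6a and used featureCounts for counts per gene, and the annotation and the strand setting are not given in the sources used here. The deposited values used are raw counts per gene and library. The deposited tables also hold the authors' DESeq2 1.30.0 comparison (mean score, log2 fold change, p-value), which was not used.

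Members were found by name and summed count, and members, lists and tests were chosen with earlier results of these data known. Each line was fitted over all its genes with edgeR 4.0.16 in R 4.3.3 (filterByExpr with a minimum count of 10 and a total of 15, TMM, glmQLFit and glmQLFTest, Benjamini-Hochberg over all genes tested), and the difference between the lines as an interaction over 12 libraries. An adjusted p under 0.05 is a call, an SE is the fold change divided by the root of F, and levels are TMM-scaled CPM. Per library, log2(CPM + 0.5) of the coding gene was subtracted from that of the member, with an exact permutation test. Positions came from GENCODE 44, promoter windows from RefSeq. The fits were run on simulated counts in which few genes were changed, as many up as down. In these data 36.7% of genes were called in HepG2 and 71.3% in Huh7, a setting that the simulation did not cover. Intervals and precision follow from 3 libraries a group of 19469574 to 29744471 counts.

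Named members were, per line, the 6 highest and 6 lowest log2 fold changes among called members without overlap of the groups and at least 1 CPM, the 5 most abundant, the 4 widest opposite pairs, and the 4 largest differences between the lines, each with its coding gene, and in each list the 3 with the lowest adjusted p. Genes named outside this rule are marked where they appear. Some genes that the rule named are not reported here. Replicate numbers were checked for pairing by the correlation of same-numbered libraries' deviations from their group means: 0.22, 0.14 and 0.14 in HepG2 and 0.22, 0.01 and 0.31 in Huh7. These values were low in both lines, and whether the numbers pair the libraries is left undecided. Alternatives were DESeq2 1.42.0, its size factors in edgeR, no count filter, the replicate block, each library left out, overlap and count limits, and a pseudocount of 2.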

Additional observations from a re-analysis of the deposited data

Results flagged for a closer look

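For 8 named members the change after UBL5 siRNA differed between the lines by the test of the interaction. On the log2 scale, HepG2 minus Huh7 was 3.98 for ADORA2A-AS1, 3.05 for MRPL23-AS1, 2.25 for MRPS30-DT, 1.89 for SRP14-AS1, 1.81 for ZNF561-AS1, 1.36 for SDCBP2-AS1 and 1.17 for BCAR3-AS1, and -2.58 for SNAP25-AS1. In 7 of the 8 the change in HepG2 was higher, and ADORA2A-AS1 and MRPS30-DT, with too few HepG2 counts for a test within that line, passed the filter only through Huh7, where they are high, so their values are a description. The differences of the members tested in both lines were also called without HepG2 Ctrl-siRNA replicate 3. Their adjusted p (edgeR) were 5.91e-05 for MRPL23-AS1, 0.00786 for SRP14-AS1, 0.00154 for ZNF561-AS1, 0.00494 for SDCBP2-AS1, 0.00699 for BCAR3-AS1 and 0.000238 for SNAP25-AS1.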

How the results depend on the processing

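No called value changed sign under any alternative run. In HepG2 the count of members called was 74, and 40 to 130 with 1 library left out, the highest without Ctrl-siRNA replicate 3 and the lowest without UBL5-siRNA replicate 2 (41 without UBL5-siRNA replicate 3); the count of coding genes in their names was 133, and 86 to 153, the lowest without UBL5-siRNA replicate 2. The count of members whose change differed between the lines was 40, and 24 to 74, the lowest without Huh7 Ctrl-siRNA replicate 1 and the highest without HepG2 Ctrl-siRNA replicate 3. With a summed count of at least 300, 142 members were called in Huh7 in place of 241, since fewer members remain. The other totals of members and of coding genes called, among them the members by DESeq2 (78 in HepG2 and 218 in Huh7), stayed within 1.5 times. Smaller counts moved more, and without HepG2 Ctrl-siRNA replicate 3 the members lower in both lines were 73 in place of 44 and those higher in both 25 in place of 14. Named HepG2 calls lost with 1 library left out are given beside their values; SPRY4-AS1 and SRP14-AS1 gained one with DESeq2, and LBX2-AS1, SEMA3F-AS1 and SRP14-AS1 without Ctrl-siRNA replicate 3. With the replicate block 69 members were called in HepG2, 63 of them among the 74, and 247 in Huh7, 240 of them among the 241. Under the block CYP2U1-AS1 and DLGAP4-AS1 lost their call. It added LBX2-AS1, SPRY4-AS1 and TP73-AS1 in HepG2 and THUMPD3-AS1 in Huh7 and changed no other call of a named member. With 3 libraries a group and a median level under 2 CPM, small changes of scarce members could not be detected at this depth, and exact permutation tests of a ratio cannot go below 0.1.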
